A study of Homo sapiens with 9 samples.

Results

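The polyubiquitin gene UBB was followed with 7 genes that act on ubiquitin between its activation and the proteasome, across control, NFE2L1 and NFE2L1DC libraries labelled HepG2, a human line from a liver tumour. The 8 genes were taken by gene name from the 58174 genes of the table, and they were chosen with earlier results of these data known. They were UBB, the activating enzymes UBA1 and UBA6, the proteasome-bound deubiquitinases USP14 and UCHL5, the proteasome-bound ligase UBE3C and the shuttle proteins UBQLN1 and UBQLN2. In the main fit of all 9 libraries, none of the 8 differed between groups after adjustment over all genes tested. UBE3C in NFE2L1 against control was called with a filter at 5 TPM or with a correction for GC content and length. The count also depended on 1 control library. Without it, UBB, UCHL5, UBE3C, UBQLN1 and UBQLN2 differed in NFE2L1 against control and USP14, UCHL5, UBE3C, UBQLN1 and UBQLN2 in NFE2L1DC against control, in fits that called 36.3% and 24.7% of all genes.

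The series title asks about a non-transcriptional activity of NFE2L1, a cap'n'collar transcription factor anchored in the endoplasmic reticulum and known for activating proteasome subunit genes. Each group has 3 libraries: a control with the genotype label WT, which the protocol text describes as pLVX vector cells, a line overexpressing NFE2L1, and a line overexpressing NFE2L1DC, whose name the protocol writes with a delta before the C. All 3 groups were grown in high glucose DMEM with fetal bovine serum, and RNA was taken in Trizol. No source used here says how much of the protein is deleted, and the labels do not say how many clones or separate cultures the libraries came from. The p-values hence cover only the spread among these 9 samples, which may be technical. Both overexpressing lines are compared with the same 3 control libraries.

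Ubiquitin is made from several genes. UBB encodes a head-to-tail chain of ubiquitin units that is cut into single molecules, and RPS27A encodes 1 unit fused to a ribosomal protein. UBA1 charges most of the cell's ubiquitin and UBA6 a smaller share, and UBA6 also activates the ubiquitin-like modifier FAT10. At the 26S proteasome, USP14 and UCHL5 trim ubiquitin chains from bound substrates, UBE3C extends chains on substrates that are slow to be degraded, and the ubiquilins UBQLN1 and UBQLN2 carry ubiquitylated proteins to the particle.

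Values are TPM, a relative transcript abundance corrected for transcript length, so that levels of different genes can be set side by side. The table holds no read counts, so the depth behind each value is unknown. Between 13057 and 13950 genes reached 1 TPM in a library, and mitochondrial transcripts took 15.27% to 18.92% of the TPM. The targeted gene NFE2L1 had 104, 81.7 and 64 TPM in the control libraries, 207, 181 and 354 in the NFE2L1 libraries and 445, 427 and 472 in the NFE2L1DC libraries. The 3 ranges did not overlap, and a gene-level value cannot separate the transgene from the cell's own transcript. By limma, the NFE2L1 gene was called higher in both lines against control. Between the lines its log2 fold change was -0.92 in NFE2L1 against NFE2L1DC (adjusted p = 0.228), which was not called. Of 12 hepatocyte markers none reached 1 TPM in 3 libraries, and ALB, APOB, TTR, SERPINA1, FGA and FGB were listed at 0 in all 9, so the labelled cell type is not supported by its markers. Of 14 markers of blood, endothelial, mesenchymal, muscle and glial cells, PTPRC, CD3E and COL1A2 were at 0 in all 9 libraries. The summed level of those 14 was 168 to 189 TPM in control, 139.9 to 154 in NFE2L1 and 125 to 139 in NFE2L1DC libraries, and COL3A1 was its largest component. Of the 7 tested, limma called COL3A1, ACTA2 and PDGFRB lower and CD68 higher in NFE2L1 against control, COL3A1 and ACTA2 lower in NFE2L1DC against control, and CD68 higher in NFE2L1 than in NFE2L1DC. Mean TPM in control, NFE2L1 and NFE2L1DC was 107, 73.8 and 69.5 for COL3A1 and 22.5, 37.4 and 25.2 for CD68. The part of these shifts in the results was not tested. In bulk RNA, fewer cells of a type and less RNA per cell cannot be told apart.

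The coding sequence of UBB shows the repeat that sets this gene apart from the other 7. The longest open reading frame of its GENCODE 29 transcript has 690 bases and holds 3 units of 228 bases, or 76 codons, followed by 6 bases. The first unit is shown 5′ to 3′ because each unit is nearly a copy of the others, and capitals mark the 14 positions at which either of the other units has another base.
UBB unit: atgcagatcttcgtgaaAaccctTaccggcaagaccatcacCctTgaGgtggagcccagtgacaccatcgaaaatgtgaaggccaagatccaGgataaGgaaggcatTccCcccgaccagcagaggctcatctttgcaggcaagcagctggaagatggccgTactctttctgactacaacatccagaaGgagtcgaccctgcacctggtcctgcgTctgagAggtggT
Units were 94.7% to 96.5% identical to each other, and the first was 83.3% identical to its best ungapped match in RPS27A. Of the 1151 windows of 75 bases along the UBB transcript, 739 (64.2%) occurred in no other gene's transcripts, and the others were shared with UBBP1, UBBP4 and AC093484.3. UBBP4 was at 0.302 to 5.02 TPM, and UBBP1 and AC093484.3 stayed at or under 0.619 TPM. No source used here says how the authors' quantifier divided reads among these copies, so the UBB level carries that uncertainty. The windows of the other 7 transcripts were at least 98.9% unique.

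NFE2L1 binds antioxidant response elements, so the start-site regions of the 8 genes were searched for the core letters TGACNNNGC on both strands. RefSeq's table for build GRCh38.p14 held 12 start-site entries for the 8 genes, each with 250 bases before and 50 after the start. The letters occurred in 6 of the 12 entries, which include a pair of overlapping UBB entries that share a site, beside 13.3% of all 35116 promoters of that length. By gene, 5 of the 8 had a match, and the share per gene over all genes was not computed. The upstream matches are shown 5′ to 3′ on the gene's strand with their flanks, and capitals mark the core or its reverse complement.
UBB, chr17:16381301-16381329, plus strand: gagggcgaggTGACGCGGCgctgggcctt
USP14, chr18:158521-158549, plus strand: tttgcgtgttGCTGCGTCAtcgccagtgg
UCHL5, chr1:193059393-193059421, minus strand: gcgctgcaggTGACGGCGCccggaggctg
UBQLN1, chr9:83708016-83708044, minus strand: cagccggggaTGACTCGGCgacgccgcca
UBQLN2, distal, chrX:56563471-56563499, plus strand: tttttaatttTGACCGAGCcaaatctatc
UBQLN2, proximal, chrX:56563504-56563532, plus strand: taggcctggcGCCGCGTCAgcagaggggg
The core began 26 bases upstream of a RefSeq start in USP14, 30 in UBB, 51 in UCHL5, 76 in UBQLN1, and 146 and 113 in UBQLN2. From the start of the other UBB entry, the same site began 21 bases downstream. Only the first of the UCHL5 entries held a match. Both UBQLN2 matches lie upstream of the gene as GENCODE 29 draws it, and the other 4 fall in annotated exons of their genes. UBQLN2 is the only gene with more than 1 site, so its whole upstream window, chrX:56563377-56563626 on the plus strand, is given with the same capitals.
UBQLN2 upstream: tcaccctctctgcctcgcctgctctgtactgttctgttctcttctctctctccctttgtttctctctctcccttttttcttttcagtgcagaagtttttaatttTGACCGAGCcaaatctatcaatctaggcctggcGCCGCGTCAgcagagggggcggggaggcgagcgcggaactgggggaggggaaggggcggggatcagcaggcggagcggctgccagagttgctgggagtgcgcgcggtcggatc
UBA1, UBA6 and UBE3C had no match in their windows. The heat shock element pairs GAANNTTC and TTCNNGAA, found in 6.77% and 7.74% of all promoters, occurred in none of the 12 entries. These are matches of letters and no binding was measured here.

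Levels in control libraries fell into 3 tiers. UBB stood at 944 ± 71.2 TPM (SD, n = 3) and UBA1 at 487 ± 51, and their ranges did not overlap with each other or with those below. UBQLN2 at 37.5 ± 9.98, UBQLN1 at 27.7 ± 12.5, USP14 at 27.3 ± 6.99, UBE3C at 24 ± 7.3 and UCHL5 at 14.5 ± 6.49 formed a middle tier in which each overlapped the next. UBA6 was lowest at 0.893 ± 0.597. The order was the same in the NFE2L1 libraries, and in the NFE2L1DC libraries only USP14 moved, to the head of the middle tier, where its range still overlapped that of UBQLN2. UBA1 was present at 278 to 1413 times the TPM of UBA6, depending on the library.

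**Figure D1:**
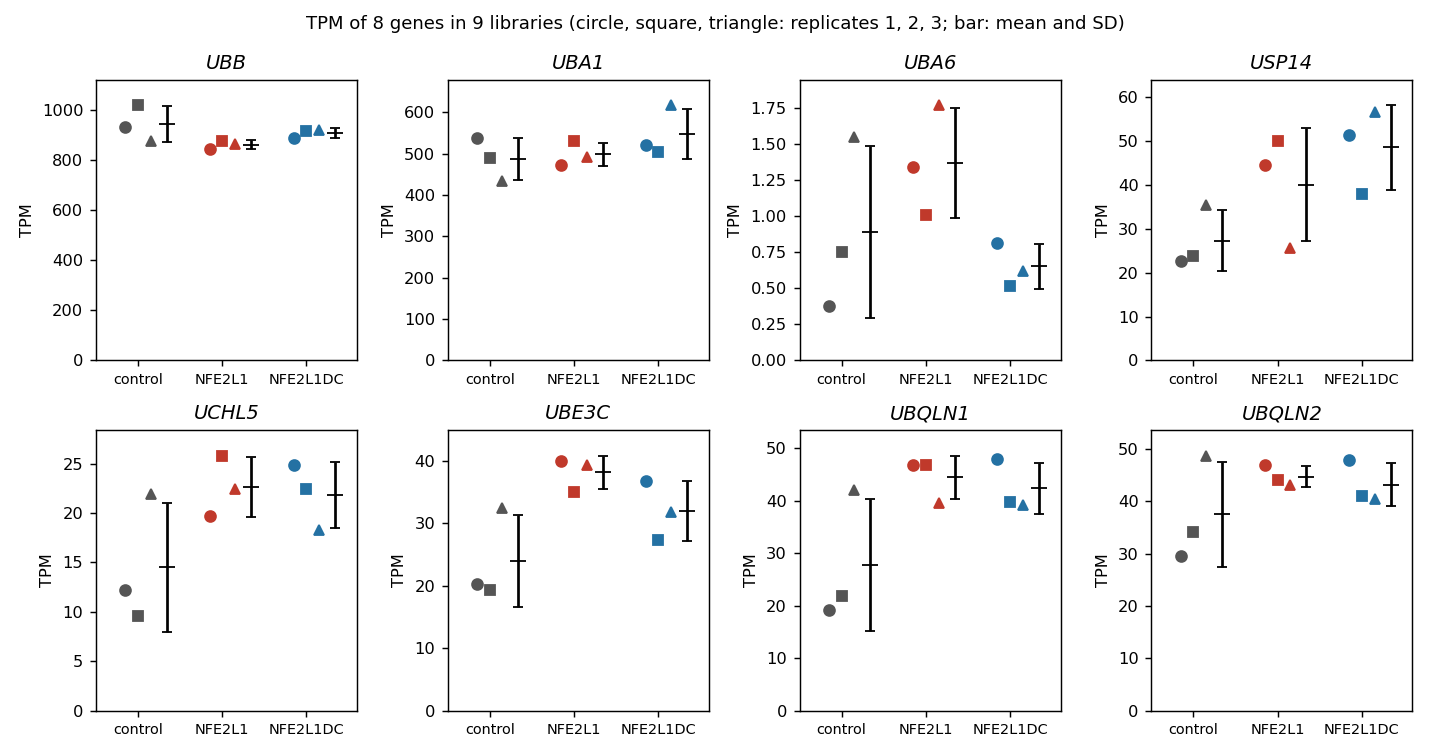
TPM (linear axis from 0) of each gene in the 3 control, 3 NFE2L1 and 3 NFE2L1DC libraries, with circle, square and triangle for replicates 1, 2 and 3 and a bar for the mean and SD. For USP14, UCHL5, UBE3C, UBQLN1 and UBQLN2 the triangle of control replicate 3 lies above both other controls, and for UBB and UBA1 it lies below them.

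Differences were tested with limma on log2(TPM + 1) over 14118 genes, and a gene was called at a Benjamini-Hochberg adjusted p under 0.05. In NFE2L1 against control, 0 of the 8 genes were called and 3 had an unadjusted p under 0.05, beside 7.83% of all genes called higher and 2.57% called lower. In NFE2L1DC against control, 0 of 8 were called and 4 had an unadjusted p under 0.05, beside 2.06% of all genes called higher and 1.54% lower. In NFE2L1 against NFE2L1DC, 0 of 8 were called and 0 had an unadjusted p under 0.05, beside 0.715% called higher and 0.0779% lower. The median log2 fold change of the 8 was 0.43, 0.33 and 0.05 in these comparisons, beside 0.17, 0.12 and 0.06 for all genes. UBA6 had at least 1 TPM in only 4 libraries and passed the filter on low values through control replicate 3 and the NFE2L1 libraries. The other 7 genes had at least 1 TPM in all 9.

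Separation of the 3 libraries of one group from the 3 of another was also counted. Against control, 1 gene (UBE3C) lay wholly higher and 0 wholly lower in NFE2L1, where 22.6% of all genes lay wholly higher and 9.53% wholly lower. In NFE2L1DC 1 gene (USP14) lay wholly higher than control and 0 lower, beside 13.7% and 8.98% of all genes. Between the overexpressing lines 1 gene (UBA6) lay wholly higher in NFE2L1 and 1 (UBB) wholly lower, beside 12.4% and 5.55%. UBA6 passed the filter with no NFE2L1DC library at 1 TPM, so its separation there is a description only. Counts of 1 and 0 among 8 genes are close to these background shares.

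**Figure D2:**
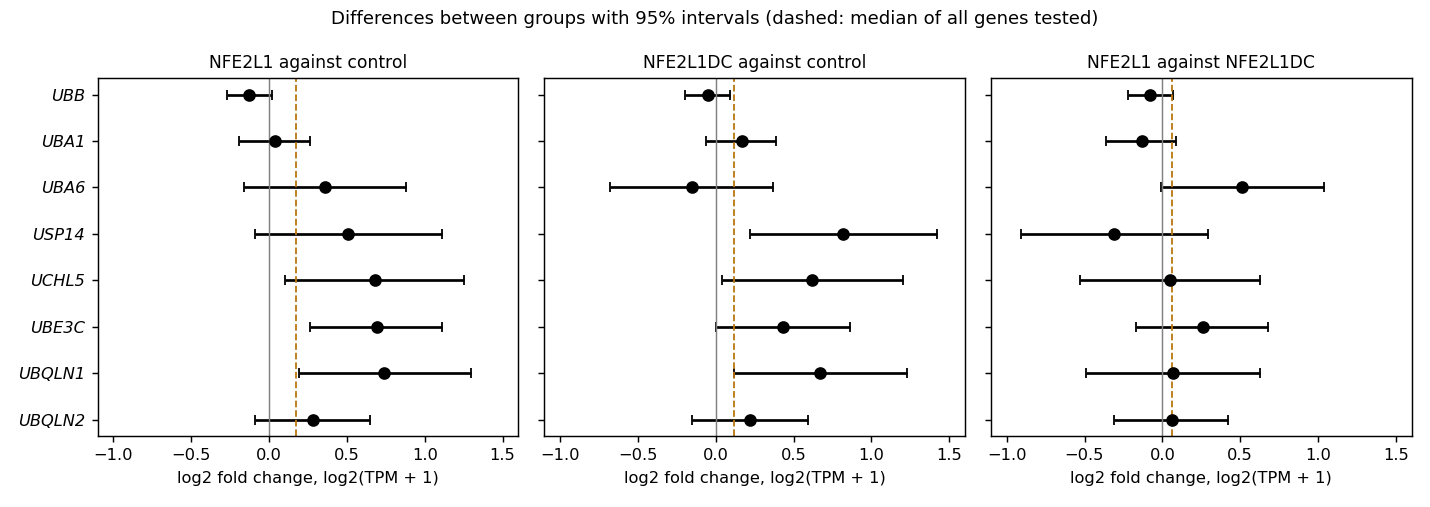
Log2 fold change of each gene in the 3 comparisons (points, on the log2(TPM + 1) scale) with 95% intervals, a solid line at 0 and a dashed line at the median of all genes tested. USP14, UCHL5, UBE3C and UBQLN1 lie to the right of the dashed line in both comparisons with control, and UBB lies to its left in all 3.

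Control replicate 3 stood apart from the other 2 control libraries for these genes. Its TPM over the mean of control replicates 1 and 2 was 2.74 for UBA6, 2.05 for UBQLN1, 2.01 for UCHL5, 1.64 for UBE3C, 1.53 for UBQLN2 and 1.52 for USP14. For UBB and UBA1 the ratio was 0.899 and 0.848. The genes that were high in that library are those with low GC content in their transcripts, from 37.2% in UBA6 to 46.8% in UBE3C, while UBB had 51.4% and UBA1 57%. Over 11445 protein-coding genes, the log2 deviation of control replicate 3 from the other 2 had a Spearman rho of -0.68 with GC content. The same rho was -0.45 for the difference of NFE2L1 against control and -0.37 for NFE2L1DC against control. These values share the control libraries. For NFE2L1 against NFE2L1DC, which uses no control library, rho was -0.25, so the trend was not limited to comparisons with control. For the deviation of single libraries, rho with GC content was 0.62, 0.51 and -0.43 in control replicates 1, 2 and 3. It was -0.29, -0.27 and -0.35 in the NFE2L1 libraries and -0.4, -0.04 and 0.19 in the NFE2L1DC libraries. All of these are given as descriptions. Which of the control libraries is typical cannot be told apart with 3 of them.

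**Figure D3:**
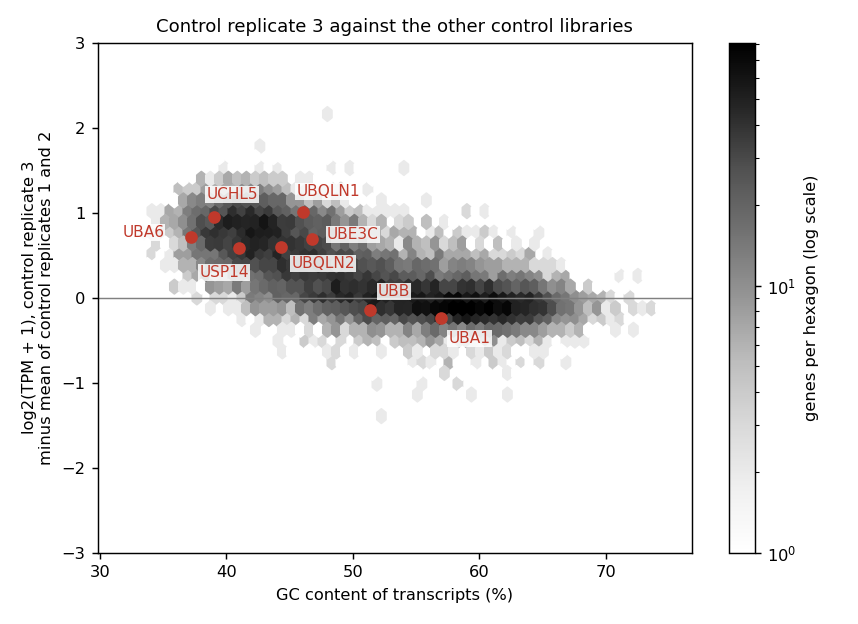
Difference in log2(TPM + 1) between control replicate 3 and the mean of control replicates 1 and 2, against the GC content of transcripts in percent, for 11445 protein-coding genes (grey hexagons, counts on a log scale) and the 8 genes (red points). UBA6, UCHL5, USP14, UBQLN2, UBQLN1 and UBE3C lie above 0 at low GC content, and UBB and UBA1 below 0 at higher GC content.

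When control replicate 3 was left out, more of the genome and more of the 8 genes were called by the same limma fit. In NFE2L1 against control 30.6% of 13918 genes were then called higher and 5.73% lower, and UCHL5, UBE3C, UBQLN1 and UBQLN2 were called higher and UBB lower. UBA6 also passed the threshold, but in that fit it reached 1 TPM only in the 3 NFE2L1 libraries, so it entered through the group where it was high and its call is not counted. In NFE2L1DC against control 20.4% were called higher and 4.32% lower, and USP14, UCHL5, UBE3C, UBQLN1 and UBQLN2 were called higher. Between the overexpressing lines 0 of the 8 were called with or without that library. The background shares are taken over genes of every GC content, while 6 of the 8 members lie at 46.8% GC or lower. The part of GC content in these counts was not tested.

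**Figure D4:**
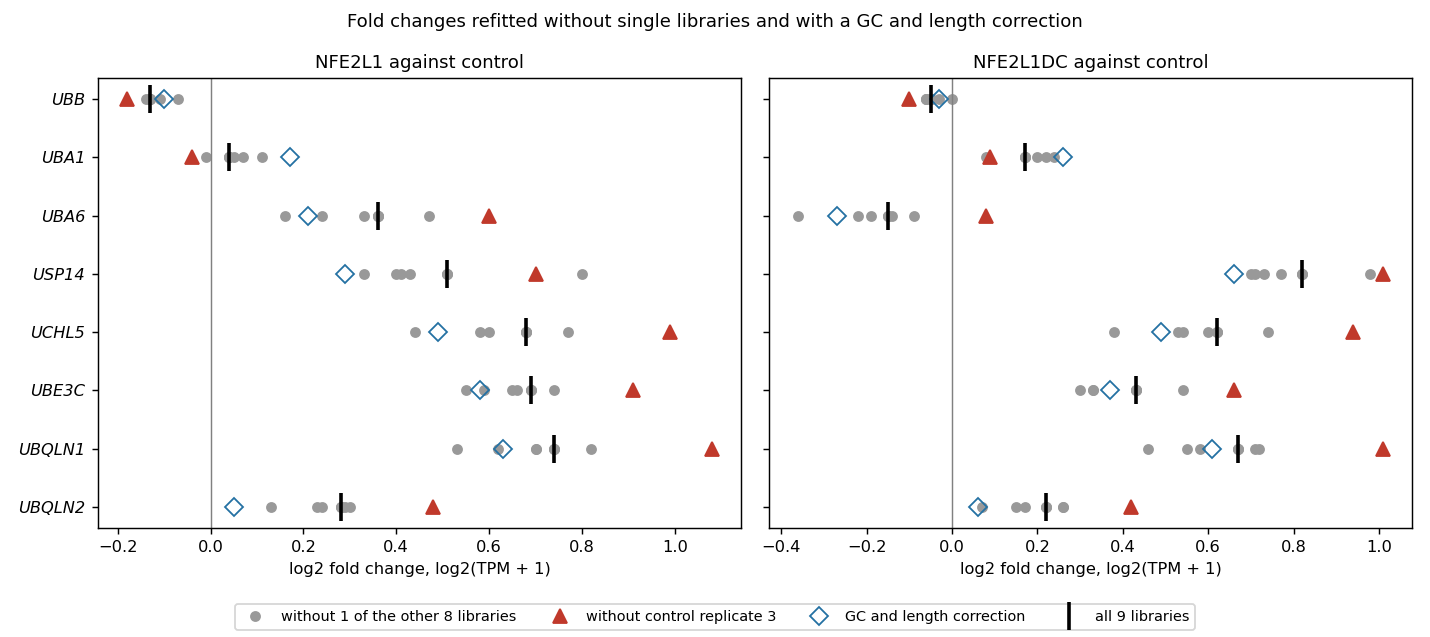
Log2 fold change on the log2(TPM + 1) scale of each gene against control with all 9 libraries (bars), without control replicate 3 (triangles), without each other library (dots) and after a correction for GC content and transcript length (diamonds). The triangle is the highest of the leave-one-out values for UCHL5, UBE3C, UBQLN1, UBQLN2 and UBA6 in both panels and the lowest for UBB.

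UBB (ENSG00000170315, chr17:16380798-16382745, plus strand, GRCh38) had 935, 1020 and 879 TPM in the control libraries, 844, 879 and 866 in the NFE2L1 libraries and 888, 919 and 921 in the NFE2L1DC libraries. The NFE2L1 libraries were at the low end and reached control only at control replicate 3, and the coefficient of variation over all 9 libraries was 5.72%, the lowest of the 8 genes. The log2 fold change was -0.13 ± 0.06 (SE) in NFE2L1 against control, with a 95% interval of -0.27 to 0.02 and an adjusted p of 0.209 by limma. In NFE2L1DC against control it was -0.05 ± 0.06, with an adjusted p of 0.648. UBB was called lower in NFE2L1 without control replicate 3, at -0.18 with an adjusted p of 0.0444. UBB overlaps the antisense gene AC093484.4, which was at 25 to 63.7 TPM, and no source used here says whether counting used strand.

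RPS27A, which encodes a ubiquitin unit fused to a ribosomal protein, was at a level like that of UBB. It had 978, 988 and 1127 TPM in control, 955, 1166 and 969.6 in NFE2L1 and 1154, 1009 and 957 in NFE2L1DC libraries. The 3 groups overlapped throughout. The share of the RPS27A transcript that is unique was not computed, so its level may carry an uncertainty like that of UBB. The log2 fold change was 0 ± 0.1 in NFE2L1 against control (95% interval -0.23 to 0.22, adjusted p = 0.979 by limma) and 0.01 ± 0.1 in NFE2L1DC against control (-0.22 to 0.24, adjusted p = 0.959).

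UBA1 (ENSG00000130985, chrX:47190861-47215128, plus strand), the main ubiquitin-activating enzyme, had 537, 489 and 435 TPM in control, 473, 529.9 and 491 in NFE2L1 and 521, 505 and 617 in NFE2L1DC libraries. All 3 groups overlapped, and NFE2L1DC replicate 3 was the highest library. The log2 fold change was 0.04 ± 0.1 in NFE2L1 against control (95% interval -0.19 to 0.26, adjusted p = 0.826 by limma) and 0.17 ± 0.1 in NFE2L1DC against control (-0.06 to 0.39, adjusted p = 0.352). The sign of the first value was not stable: it was -0.14 with median-of-ratios scaling and -0.04 without control replicate 3.

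UBA6 (ENSG00000033178, chr4:67612652-67701179, minus strand) had the lowest level of the 8. It had 0.38, 0.751 and 1.55 TPM in control, 1.34, 1.01 and 1.77 in NFE2L1 and 0.818, 0.517 and 0.623 in NFE2L1DC libraries. Control replicate 3 reached into the NFE2L1 range while the other 2 controls lay in or near the NFE2L1DC range. Its TPM in NFE2L1 was 2.1 times that in NFE2L1DC, with a log2 fold change of 0.51 ± 0.23 (95% interval -0.01 to 1.04, adjusted p = 0.62 by limma), and the log2(TPM + 1) scale understates changes at this level. No NFE2L1DC library reached 1 TPM, so UBA6 entered this comparison through the other groups and its values there are descriptions only. Against control the log2 fold change was 0.36 in NFE2L1 (adjusted p = 0.317) and -0.15 in NFE2L1DC (adjusted p = 0.715). The value in NFE2L1 without control replicate 3, 0.6, is given with no test, since UBA6 then passed the filter only through the NFE2L1 libraries.

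USP14 (ENSG00000101557, chr18:158383-214629, plus strand) is a ubiquitin protease held on the base of the regulatory particle that can both release ubiquitin and slow degradation. It had 22.8, 23.8 and 35.4 TPM in control, 44.7, 50.1 and 25.6 in NFE2L1 and 51.4, 38 and 56.6 in NFE2L1DC libraries. Every NFE2L1DC library lay above every control, whereas NFE2L1 replicate 3 fell among the controls. That library also had the highest NFE2L1 level of its group, 354 TPM, and any relation of USP14 to the NFE2L1 level was not tested. NFE2L1 was at 427 to 472 TPM in the NFE2L1DC libraries, where USP14 was at 38 to 56.6. The fold over control was 1.78 in NFE2L1DC, with a log2 fold change of 0.82 ± 0.27 (95% interval 0.22 to 1.42) and an adjusted p of 0.122 by limma. In NFE2L1 it was 1.47, with a log2 fold change of 0.51 ± 0.27 (-0.09 to 1.11) and an adjusted p of 0.224. The latter was 0.8 without NFE2L1 replicate 3 and 0.29 after correction for GC content and length, and it was not called in any of 16 alternatives. NFE2L1 against NFE2L1DC gave -0.31 with an adjusted p of 0.862, so a difference between the lines was not shown. Without control replicate 3 USP14 was called in NFE2L1DC against control, at 1.01 with an adjusted p of 0.029, and not in NFE2L1, where the adjusted p was 0.0731.

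UCHL5 (ENSG00000116750, chr1:193012250-193060080, minus strand) is docked to the proteasome by the ubiquitin receptor ADRM1. It had 12.2, 9.56 and 21.9 TPM in control, 19.7, 25.8 and 22.4 in NFE2L1 and 24.9, 22.4 and 18.3 in NFE2L1DC libraries. Control replicate 3 lay inside both overexpressing ranges and the other 2 controls lay below them. The log2 fold change was 0.68 ± 0.26 in NFE2L1 (95% interval 0.1 to 1.25, adjusted p = 0.118 by limma) and 0.62 ± 0.26 in NFE2L1DC (0.04 to 1.2, adjusted p = 0.202). Leaving out control replicate 3 gave 0.99 with an adjusted p of 0.00348 and 0.94 with an adjusted p of 0.00796. Leaving out control replicate 2 gave the lowest values of 16 alternatives, 0.44 in NFE2L1 and 0.38 in NFE2L1DC. Over these alternatives the adjusted p by limma reached 0.345 and 0.512, and UCHL5 was called in 1 of 16 in each line.

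UBE3C (ENSG00000009335, chr7:157138913-157269372, plus strand) came nearest to a call in the main fit of all libraries. It had 20.3, 19.3 and 32.4 TPM in control, 40, 35.1 and 39.4 in NFE2L1 and 36.8, 27.3 and 31.9 in NFE2L1DC libraries. All NFE2L1 libraries lay above all controls, and control replicate 3 overlapped the NFE2L1DC range. The fold over control in NFE2L1 was 1.59, with a log2 fold change of 0.69 ± 0.19 (95% interval 0.26 to 1.11) and an adjusted p of 0.0511 by limma. It was called in 3 of 16 alternatives: with a filter at 5 TPM (adjusted p = 0.0444), with the GC and length correction (0.58, adjusted p = 0.0469) and without control replicate 3 (0.91, adjusted p = 0.00182). Over the 16 alternatives the adjusted p ran from 0.00182 to 0.173. In NFE2L1DC the log2 fold change was 0.43 ± 0.19 with an adjusted p of 0.229, and without control replicate 3 it was called at 0.66 with an adjusted p of 0.0108.

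UBQLN1 (ENSG00000135018, chr9:83659963-83708203, minus strand) and UBQLN2 (ENSG00000188021, chrX:56563639-56567868, plus strand) bind ubiquitin chains at one end and the proteasome at the other, and UBQLN2 is known for mutations in familial amyotrophic lateral sclerosis. UBQLN1 had 19.1, 21.9 and 42 TPM in control, 46.8, 46.7 and 39.6 in NFE2L1 and 47.8, 39.8 and 39.2 in NFE2L1DC libraries. UBQLN2 had 29.6, 34.2 and 48.7 TPM in control, 46.9, 44.1 and 43 in NFE2L1 and 47.8, 40.9 and 40.5 in NFE2L1DC libraries. For both genes control replicates 1 and 2 were the lowest of the 9 libraries, and control replicate 3 lay within the overexpressing range for UBQLN1 and just above it for UBQLN2. The log2 fold change of UBQLN1 was 0.74 ± 0.25 in NFE2L1 (95% interval 0.19 to 1.3, adjusted p = 0.0845 by limma) and 0.67 ± 0.25 in NFE2L1DC (0.12 to 1.23, adjusted p = 0.161). That of UBQLN2 was 0.28 ± 0.16 in NFE2L1 (-0.09 to 0.65, adjusted p = 0.278) and 0.22 ± 0.16 in NFE2L1DC (-0.15 to 0.59, adjusted p = 0.451).

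Without control replicate 3 both ubiquilins were called higher in both lines. UBQLN1 was at 1.08 with an adjusted p of 0.000917 in NFE2L1 and at 1.01 with an adjusted p of 0.00288 in NFE2L1DC. UBQLN2 was at 0.48 with an adjusted p of 0.0114 and at 0.42 with an adjusted p of 0.0256. For UBQLN1 the lowest of 16 alternatives came without control replicate 1, at 0.53 in NFE2L1 and 0.46 in NFE2L1DC. Its adjusted p by limma reached 0.248 and 0.404 over these alternatives. Each ubiquilin was called in 1 of 16 in each line. With all libraries and the correction for GC content and length, the UBQLN2 values were 0.05 and 0.06, and those of UBQLN1 were 0.63 and 0.61. The ratio of UBQLN1 to UBQLN2 TPM was 0.646, 0.639 and 0.863 in control, 0.998, 1.06 and 0.921 in NFE2L1 and 0.999, 0.974 and 0.966 in NFE2L1DC libraries. All 6 overexpressing libraries had a higher ratio than all 3 controls. The share of other gene pairs that separate in this way was not computed, so the separation is a description only. For comparison, the ratio of USP14 to UCHL5 overlapped between groups. It was 1.87, 2.49 and 1.62 in control, 2.26, 1.94 and 1.14 in NFE2L1 and 2.07, 1.7 and 3.1 in NFE2L1DC libraries. A 2-sided exact permutation test of 3 libraries against 3 cannot go below 0.1, and none was run on this ratio.

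None of the 8 genes differed detectably between the NFE2L1 and NFE2L1DC lines. The 95% intervals of NFE2L1 against NFE2L1DC were -0.22 to 0.07 for UBB, -0.36 to 0.09 for UBA1, -0.01 to 1.04 for UBA6, -0.91 to 0.29 for USP14, -0.53 to 0.63 for UCHL5, -0.17 to 0.68 for UBE3C, -0.49 to 0.63 for UBQLN1 and -0.31 to 0.42 for UBQLN2. They are narrow for UBB and UBA1 and wider for UBA6, USP14, UCHL5, UBE3C, UBQLN1 and UBQLN2, for which sizeable differences remain possible. UBA6 passed the filter with no NFE2L1DC library at 1 TPM, so its interval and its separation between the lines are descriptions only.

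Across the 9 libraries, USP14, UCHL5, UBE3C, UBQLN1 and UBQLN2 varied together. Pearson's r of log2(TPM + 1) over the 10 pairs ran from 0.62 for USP14 with UBE3C to 0.95 for UBQLN1 with UBQLN2, and from 0.4 for USP14 with UCHL5 to 0.98 for UBQLN1 with UBQLN2 after group means were removed, when 8 of the 10 pairs were lower. UBB had r from -0.9 with UBE3C to -0.46 with USP14. These libraries share groups, scaling and the GC gradient described above, so r is a description only. The summed TPM of the 6 genes other than UBB and UBA1 was 104.3, 109.4 and 181.9 in control, 199.5, 202.8 and 171.7 in NFE2L1 and 209.4, 168.8 and 187.1 in NFE2L1DC libraries.

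The genes most like each member were taken as the 3 with the highest r over the 9 libraries among 6871 protein-coding genes with a mean of at least 10 TPM (6872 for UBA6). For UBB they were CUTA (r = 0.98), NDUFB9 (0.95) and GAMT (0.95), and for UBA1 RBM42 (0.97), THOC6 (0.95) and POLDIP2 (0.94). For UBA6 they were PMPCB (0.95), UPF3A (0.95) and SMARCAL1 (0.94), and for USP14 NAF1 (0.96), TP53RK (0.95) and QTRT2 (0.94). CACYBP (0.98), EYA3 (0.97) and LYN (0.97) were nearest to UCHL5. LAMC1 (1), TMEM140 (0.99) and ANKRD27 (0.99) were nearest to UBE3C. RFC3, YWHAZ and MRPS10 (each 0.99) were nearest to UBQLN1, and ELOVL5, KIF1BP and SFXN1 (each 0.99) to UBQLN2. YWHAZ, a 14-3-3 protein, shows the shared shape at a high level: 235, 271 and 439 TPM in control, 497, 492 and 472 in NFE2L1 and 534, 435 and 427 in NFE2L1DC libraries.

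Around the 8 genes, the pathway was described through lists of its other parts, with the same calls. Of 33 constitutive 26S proteasome subunits, 10 rose in NFE2L1 against control and 3 in NFE2L1DC against control, beside 7.83% and 2.06% of all genes. The list medians were 0.34 and 0.17, beside 0.17 and 0.12 for all genes, so the NFE2L1DC median was close to that of all genes. PSMD11, a lid subunit, had 56.1, 60.7 and 60.1 TPM in control, 90, 83.9 and 88.4 in NFE2L1 and 84, 69.9 and 79.1 in NFE2L1DC libraries. It rose by 0.56 (adjusted p = 0.00537 by limma) and 0.39 (adjusted p = 0.0456) on the log2 scale. Control replicate 3 lay beside the other controls for this gene, while for PSMA3 it was the highest control (29.4, 36.2 and 46.2 TPM). PSMD6, PSMC4 and PSMA3 rose in NFE2L1 by 0.68 (adjusted p = 0.0111), 0.35 (0.0146) and 0.74 (0.0163), and of these only PSMA3 was also called in NFE2L1DC (0.7, adjusted p = 0.0383). In NFE2L1 the call was kept in 15 of 16 alternatives for PSMD11, 14 for PSMD6, 12 for PSMA3 and 11 for PSMC4, with highest adjusted p-values of 0.0658, 0.0521, 0.0672 and 0.436. In NFE2L1DC it was kept in 5 of 16 for PSMD11 and PSMA3.

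Of 18 other proteasome-bound or shuttle proteins, 3 rose in NFE2L1 and 1 in NFE2L1DC, with medians of 0.24 and 0.21, beside the same background. AKIRIN2, which guides proteasomes into the nucleus, rose from 47.1 ± 2.44 to 67.5 ± 3.04 TPM in NFE2L1 (log2 fold change 0.51, adjusted p = 0.00862 by limma). MIDN, a shuttle for substrates that carry no ubiquitin, rose from 26.9 ± 1.82 to 38.2 ± 2.2 TPM (0.49, adjusted p = 0.0117). ADRM1, the receptor of UCHL5 and also one of the 33 subunits, rose in both lines, from 231 ± 18 TPM in control to 284 ± 8.36 in NFE2L1 (0.3, adjusted p = 0.0385) and 290.1 ± 16.4 in NFE2L1DC (0.33, adjusted p = 0.0491). In NFE2L1DC, AKIRIN2 was at 0.3 with an adjusted p of 0.0974 and MIDN at 0.24 with an adjusted p of 0.163. AKIRIN2 kept its call in NFE2L1 in 15 of 16 alternatives and MIDN in 12. ADRM1 kept its calls in only 5 of 16 in NFE2L1 and 3 of 16 in NFE2L1DC, and both were lost without control replicate 1, without control replicate 2 or without any single NFE2L1 library.

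Of 30 ubiquitin-conjugating enzymes 2 rose in NFE2L1, a share below the 7.83% of all genes: UBE2Z (0.42, adjusted p = 0.0413 by limma) and UBE2L3 (0.29, adjusted p = 0.0416), and 0 in NFE2L1DC, where 7 had an unadjusted p under 0.05, with medians of 0.31 and 0.21. UBE2Z is the conjugating enzyme that works with UBA6. Their calls were kept in 5 and 3 of 16 alternatives, and both were lost without control replicate 1, without control replicate 2 or without any single NFE2L1 library. Of 7 tested activating enzymes of ubiquitin-like proteins (8 listed), 25 tested deubiquitinases other than USP14 and UCHL5 (26 listed) and 15 genes of the p97 segregase and its cofactors, 0 were called by limma in any comparison. Unadjusted p-values under 0.05 numbered 2, 7 and 5 in NFE2L1 against control and 1, 1 and 1 in NFE2L1DC against control. The medians of these 3 lists were 0.45, 0.21 and 0.17 in NFE2L1 and 0.34, 0.17 and 0.11 in NFE2L1DC against control. Without a filter on low values, 1 of the 8 listed activating enzymes was called higher in NFE2L1 against control. In that fit 1 was also called higher in NFE2L1 against NFE2L1DC. Of 20 heat shock genes 7 rose in NFE2L1 and 2 in NFE2L1DC, with medians of 0.37 and 0.35. BAG3 (0.39, adjusted p = 0.00947), HSPE1 (0.46, adjusted p = 0.0165), HSPA8 (0.62, adjusted p = 0.0166) and STIP1 (0.31, adjusted p = 0.0191) led them in NFE2L1, and STIP1 was also called in NFE2L1DC (0.34, adjusted p = 0.026). These calls in NFE2L1 were kept in 15, 11, 10 and 10 of 16 alternatives, and that of STIP1 in NFE2L1DC in 8.

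In the main fit, with all libraries and the filter at 1 TPM, no gene of these lists was called lower. None was called in NFE2L1 against NFE2L1DC in that fit, where at most 3 genes of a list had an unadjusted p under 0.05. Counts moved with single libraries here too. Without control replicate 3, where 30.6% and 20.4% of all genes were called higher in NFE2L1 and NFE2L1DC, 17 of the 33 subunits were called higher in NFE2L1 and 11 in NFE2L1DC, and of the other proteasome-bound or shuttle proteins 8 and 9. Likewise 14 and 9 of the 30 conjugating enzymes, 4 and 4 of the 7 activating enzymes, 12 and 6 of the 25 deubiquitinases, 5 and 4 of the p97 genes and 12 and 14 of the heat shock genes were called higher, and 2 heat shock genes were called lower in NFE2L1. The p97 counts, and those of the conjugating enzymes and the deubiquitinases in NFE2L1DC, are close to those shares of all genes. The shares are taken over genes of every GC content, and the part of GC content in the list counts was not tested. Without control replicate 2, NFE2L1 replicate 1 or NFE2L1 replicate 2, only 2 subunits were called in NFE2L1. Without control replicate 1, control replicate 2 or NFE2L1 replicate 1, only 1 heat shock gene was. In NFE2L1DC, 0 or 1 of the subunits was called by limma without any single library other than control replicate 3, beside 11 with an unadjusted p under 0.05 in the fit of all libraries. Median-of-ratios scaling, which shifts the median of all genes from 0.17 and 0.12 to 0.02, left 5 and 1 of the subunits called higher, and no shuttle protein or conjugating enzyme. It left 2 heat shock genes higher and 1 lower in NFE2L1 and none in NFE2L1DC. The correction for GC content and length gave 12 and 6 subunits, 5 and 1 shuttle proteins, 3 and 0 conjugating enzymes, 2 and 0 p97 genes and 11 and 7 heat shock genes called higher in NFE2L1 and NFE2L1DC. The members' own differences against control kept their sign under that scaling except for UBA1 in NFE2L1.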

How the data were processed

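RNA-seq of 9 libraries labelled HepG2, 3 in each of 3 groups, was deposited by the authors as a single table of TPM for 58174 genes. Per the submitters' processing notes, CASAVA and the GRCh38 genome were used. No source used here names the aligner, quantifier, annotation release or strandedness. Columns summed to between 999983.0 and 999991.7, and 57836 identifiers matched GENCODE 29, which gave coordinates, GC content and transcripts.

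Genes with at least 1 TPM in at least 3 libraries (14118) were tested with limma 3.58.1 in R 4.3.3 on log2(TPM + 1), with a variance trend and 1 mean per group over all 9 libraries. Tests were 2-sided with Benjamini-Hochberg adjustment over all genes of a comparison, and differences are on that log2 scale while folds are ratios of mean TPM. The procedure was tested on simulated data.

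Genes named were the 8 members, NFE2L1, RPS27A as another ubiquitin-coding gene, up to 4 called genes of each pathway list by p, and for each member the 3 genes most like it over the 9 libraries. YWHAZ was singled out among those after its values were seen. Some genes that the rule would name are not reported here. Members and lists were chosen with earlier results of these data known. Alternatives were another pseudocount (0.1), other filters, median-of-ratios scaling, a spline correction for GC content and length, a replicate block, no variance trend and leaving out each library. Refits of the pathway lists under these were added after seeing the data. Figures were drawn with matplotlib 3.10.9.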

Additional observations from a re-analysis of the deposited data

How the results depend on the processing

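Of 381 recomputed fold changes of the 8 genes, 359 kept their direction and side of the threshold, 13 became significant and 9 changed sign at 2 decimals; UBB in NFE2L1DC against control also reached 0 without control replicate 2, just on the positive side. The sign changes were UBA1 in NFE2L1 against control (-0.14 with median-of-ratios scaling, -0.04 to 0.11 when leaving out single libraries), UCHL5 in NFE2L1 against NFE2L1DC (-0.01 with that scaling, -0.06 to 0.15 without single libraries), UBQLN2 in NFE2L1 against NFE2L1DC (-0.01 with that scaling and -0.01 with the GC and length correction) and UBA6 in NFE2L1DC against control (-0.36 to 0.08 without single libraries). UBA6 could not be tested at the 5 TPM filter. Members called in NFE2L1 against control numbered 1 (UBE3C) with the 5 TPM filter and 1 with the GC and length correction, and 0 to 6 without single libraries; in NFE2L1DC against control 0 to 5. The 6 and 5 were reached only without control replicate 3, and the 6 include UBA6, which then passed the filter only through the NFE2L1 libraries.

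Of all genes, 1468, 509 and 112 were called in NFE2L1 against control, NFE2L1DC against control and NFE2L1 against NFE2L1DC. Without single libraries these ran from 501 to 5056, from 110 to 3440 and from 36 to 148. NFE2L1 against control had 947 without a filter. Median-of-ratios scaling gave 293 in NFE2L1DC against control and 73 between the overexpressing lines, and NFE2L1DC against control had 313 without the variance trend. That scaling moved the share of calls that were higher from 75.3% to 54.6% in NFE2L1 and from 57.2% to 40.6% in NFE2L1DC against control, and the GC correction moved the latter to 70.5%. The cause was not tested. Replicate numbers did not pair the libraries: same-numbered libraries of different groups had correlations of deviations from -0.19 to 0.11, and the best match had its own number in 5 of 18 cases. With the replicate block, 872, 198 and 58 genes were called and 0 of the 8 members. Depth is unknown, so no detection floor can be given, and UBA6 near 1 TPM is the least certain of the values.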
